A study of Mus musculus with 80 samples.

Results

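The hippocampus was compared with the neocortex (called cortex here) across all genes that passed a filter on low counts, with both dissections taken from the same animals. Of the 77 libraries with deposited counts, 31 belong to this comparison: 15 of hippocampus (7 from virgin and 8 from primiparous females) and 16 of cortex (8 and 8). They were chosen by region alone, in both reproductive states, and paired by the animal number in the labels. Each library held polyadenylated RNA from the left side of the region of 1 female, and the labels give the strain as C57BL/6 in all groups. The primiparous females had been paired with a male from 8 weeks of age for 2 weeks and had raised and weaned 1 litter, while the virgins were age-matched and had had no litter. The labels place the harvest of primiparous females 3 weeks after weaning, and the methods of the study give a longer interval. Parity cannot be told apart from the time spent with a male. The hippocampus library of virgin 4490 was among the outliers that the authors removed, so its cortex library has no partner and 15 animals entered the paired test.

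The hippocampus is a simpler, older cortex that is required for forming memories of places and events. Its dentate gyrus holds densely packed granule cells, whose mossy fibres reach the pyramidal cells of field CA3, and these in turn project to field CA1, with the small field CA2 between them. The neocortex has layers: cells of the upper layers connect cortical areas with each other, cells of the deep layers send axons to the striatum, thalamus, brainstem and spinal cord, and GABAergic interneurons of several classes lie among them in both regions. Gene lists for these cell types, and for the receptors, channels, guidance molecules and transcription factors through which neurons differ, were read for how many members were higher in each region.

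Library totals ran from 14404113 to 37871854 counts in hippocampus and from 8678050 to 31391961 counts in cortex. All libraries of a region had been pooled for sequencing together, so region and sequencing pool cannot be told apart. Markers of neighbouring tissue were present in some dissections, so results they touch are also given without the libraries concerned. The summed level of 9 genes of the olfactory bulb was 15.4 to 455 CPM (counts scaled to the library total) in cortex and 17.0 to 24.0 CPM in hippocampus. In the cortex libraries of animals 413, 425 and 405 it stayed under 50 CPM, and the 9 olfactory bulb genes were all called higher in cortex over the 15 animals, with a median log2 difference of -3.90, against -0.87 over those 3 animals. The sum of these 9 genes, Shisa3, Th, Tbx21, Eomes and Nmb among them, picked the 3 animals, so their own lower values there follow from that choice and are a description. The same sum served as the olfactory bulb covariate below, so their own values with that covariate are a description too. The summed level of 7 choroid plexus genes was 61.8 to 3960 CPM in hippocampus, with the largest sums in animals 425, 4487, 421 and 4488, and a median of 35.0 CPM in cortex. The summed level of 11 cerebellar genes reached 704 CPM in the hippocampus of animal 413, against 38.0 to 98.1 CPM in the other hippocampal libraries. Below, a value "in the 3 low-bulb pairs" is the log2 difference over animals 413, 425 and 405, and a value "without the 5 animals" leaves out 413, 421, 425, 4487 and 4488. Animals 413 and 425 belong to both sets, so the 3 low-bulb pairs include the cerebellar signal of 413 and the choroid plexus signal of 425.

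**Figure D1:**
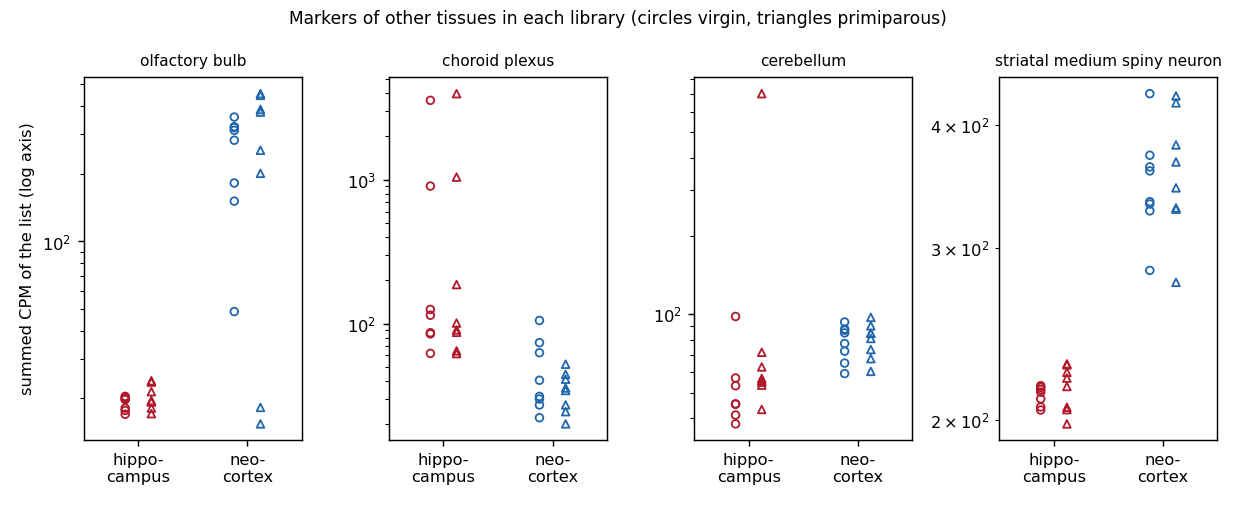
Summed CPM of marker lists of other tissues (log axis) in each hippocampal and cortical library, with circles for virgin and triangles for primiparous animals. Olfactory bulb genes lie between 15.4 and 455 CPM in cortex and between 17.0 and 24.0 CPM in hippocampus, and choroid plexus genes reach 3960 CPM in hippocampus.

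Differences are given as log2 of hippocampus over cortex ± SE from the paired fit (n = 15 animals), so that positive values are higher in hippocampus. Of 13016 genes tested with edgeR's quasi-likelihood F-test and Benjamini-Hochberg adjustment, 8573 (65.9%) had an adjusted p under 0.05. Of all genes tested, 33.5% were called higher in hippocampus and 32.4% higher in cortex, and the counts of each list below stand beside these shares. The median log2 difference was -0.002. Most differences were small, with a median size of 0.24. At least 2-fold differences that passed the test were found for 510 genes higher in hippocampus (3.92%) and 456 genes higher in cortex (3.5%), together 7.42% of the genes tested. Of these, 115 and 101 differed by at least 4-fold, 38 and 32 by at least 8-fold, and 9 and 16 by at least 16-fold. The libraries of the 2 regions did not overlap for 384 of the 510 genes and 305 of the 456 genes. Of all genes tested, whatever the size of the difference, 13.4% had groups that did not overlap, 6.52% with hippocampus higher and 6.87% with cortex higher. In bulk RNA, fewer cells of a type and less RNA per cell cannot be told apart, and this holds for every difference below.

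The 2-fold genes were followed through subsets of the animals. All but 1 of the 510 genes higher in hippocampus, and all 456 higher in cortex, had the same sign in the 7 virgin and in the 8 primiparous pairs, and 415 and 392 were over 2-fold in both. Without the 5 animals, 489 and 444 were still over 2-fold the same way. In the 3 low-bulb pairs, 385 of the 510 and 327 of the 456 were over 2-fold the same way, and 125 and 129 were not. Of the 456 cortical genes 52 were under 1.41-fold there, a count not made for the hippocampal genes. A total of 330 hippocampal and 252 cortical genes were over 2-fold in each of these subsets and after a correction for gene length and GC content.

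**Figure D2:**
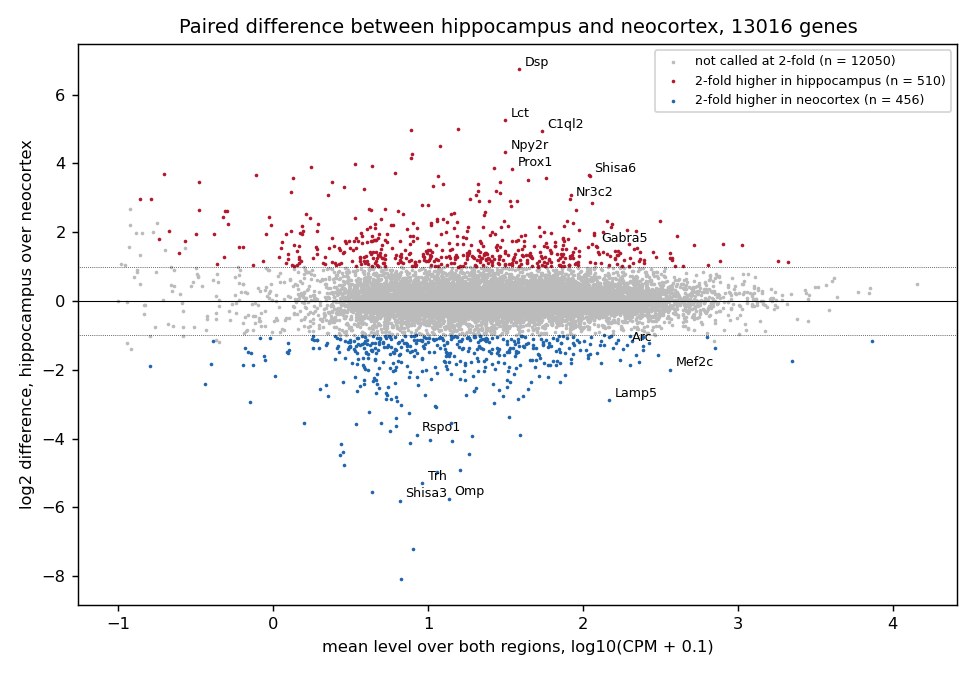
Log2 difference between hippocampus and cortex for 13016 genes against their mean level over both regions, in log10 of CPM plus 0.1, with 2-fold calls in red (510 genes higher in hippocampus) and blue (456 genes higher in cortex). Dsp has the largest hippocampal value at 6.73, and among the labelled genes Shisa3 the largest cortical value at -5.81.

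Genes of dentate gyrus granule cells were nearly all higher in hippocampus. Of 11 members tested, 10 were called higher in hippocampus, 8 of them at least 2-fold, and 1 was called higher in cortex, with a median log2 difference of 1.36. For these members and those named below, levels are the lowest, median and highest CPM over the libraries of a region. Dsp, which encodes the desmosomal plaque protein desmoplakin and lies at chr13:38151294-38198577 (GRCm38 throughout), stood at 50.9, 74.4 and 111 CPM in hippocampus and 0.239, 0.645 and 3.01 CPM in cortex (log2 difference 6.73 ± 0.22, adjusted p = 2.91e-15). Its lowest hippocampal library was far above the highest cortical one, which came from primiparous 418. Lct, which encodes the intestinal enzyme lactase (chr1:128284756-128328318), stood at 35.6, 60.4 and 87.3 CPM in hippocampus and 1.03, 1.55 and 2.88 CPM in cortex (log2 difference 5.25 ± 0.12, adjusted p = 1.64e-18). C1ql2 (chr1:120340582-120343174), a secreted organizer of mossy fibre synapses, reached 71.6, 109.5 and 129 CPM in hippocampus and 1.91, 3.20 and 6.37 CPM in cortex (log2 difference 4.94 ± 0.12, adjusted p = 4.81e-18). Prox1 (chr1:190118035-190170827), the homeodomain factor that specifies granule cell identity, was at 44.6, 65.8 and 91.6 CPM in hippocampus and 1.42, 5.12 and 7.93 CPM in cortex (log2 difference 3.83 ± 0.16, adjusted p = 1.03e-13). For all 4 genes the groups did not overlap and the sign was the same in 15 of 15 pairs.

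Among the other granule cell members, Tdo2, which encodes tryptophan dioxygenase, the first enzyme of the kynurenine pathway, had a log2 difference of 3.97 ± 0.17 (adjusted p = 4.35e-14). The protease gene Capn3 and the exchange factor gene Dock10 were both close to 1.36, and the cation channel gene Trpc6 was at 1.01. Plk5 (0.72) and Npnt (0.45) were called higher in hippocampus although their groups overlapped. Pdzd2, which encodes a PDZ domain protein, went the other way at -0.23 ± 0.08 (adjusted p = 0.0151), a call that was lost without the 5 animals (-0.15, adjusted p = 0.159) and in primiparous pairs alone. Npnt was at 0.19 in the 3 low-bulb pairs and not called there. Restricting the test to the 3 low-bulb pairs left the median of the list at 1.43.

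Genes of CA1 pyramidal cells were also higher in hippocampus. All but 1 of the 8 members were called in that direction, 6 of them at least 2-fold, and the median log2 difference was 2.27. Spink8, which encodes a serine protease inhibitor, stood at 16.9, 23.1 and 26.99 CPM in hippocampus and 0.416, 0.787 and 2.11 CPM in cortex (log2 difference 4.50 ± 0.14, adjusted p = 2.09e-16). Fibcd1 encodes a membrane receptor for acetylated groups such as those of chitin. It stood at 149.7, 197 and 261 CPM in hippocampus and 11.6, 16.1 and 23.9 CPM in cortex (log2 difference 3.63 ± 0.09, adjusted p = 5.74e-18). Neither gene had a cortical library within the hippocampal range. Gpr161, an orphan receptor of the primary cilium that restrains hedgehog signalling, had a log2 difference of 3.41 ± 0.11 (adjusted p = 6.85e-16). Ndst4, an enzyme of heparan sulfate modification, had a value of 2.80 ± 0.18 (adjusted p = 3.03e-11). Man1a, a mannosidase that trims N-glycans, was at 1.74, the POU-domain factor gene Pou3f1 at 1.14, and Wfs1, the endoplasmic reticulum protein altered in Wolfram syndrome, at 0.69. Mpped1 did not pass the test, at -0.03 ± 0.05 (adjusted p = 0.630).

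Members for CA2, CA3 and mossy cells were split. Of 12 tested, 8 were called higher in hippocampus, 3 higher in cortex and 1 in neither, with a median log2 difference of 0.76. Rgs14, a regulator of G-protein signalling known for limiting plasticity in CA2, stood at 84.8, 115 and 151 CPM in hippocampus and 36.2, 40.8 and 46.7 CPM in cortex (log2 difference 1.52 ± 0.06, adjusted p = 8.11e-15). The adhesion gene Amigo2 was at 1.34 ± 0.10, the kainate receptor subunit gene Grik4 at 1.29 ± 0.05 and the kinase gene Map3k15 at 1.25 ± 0.18. Levels of Map3k15 overlapped between the regions, and those of Rgs14, Amigo2 and Grik4 did not. Coch, which encodes the secreted protein cochlin, was the strongest exception, at 3.58, 5.78 and 9.17 CPM in hippocampus and 25.8, 35.6 and 41.96 CPM in cortex (log2 difference -2.53 ± 0.10, adjusted p = 2.43e-14). The phosphatase gene Ptpn5 was also higher in cortex (-0.75 ± 0.05). Cacng5, an AMPA receptor auxiliary subunit gene, was called higher in cortex over the 15 animals (-1.12 ± 0.23, adjusted p = 4.12e-04) but was called higher in hippocampus in the 3 low-bulb pairs, at 0.74 (adjusted p = 0.0287), and with the summed olfactory bulb genes as a covariate, at 0.84 (adjusted p = 0.00128).

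**Figure D3:**
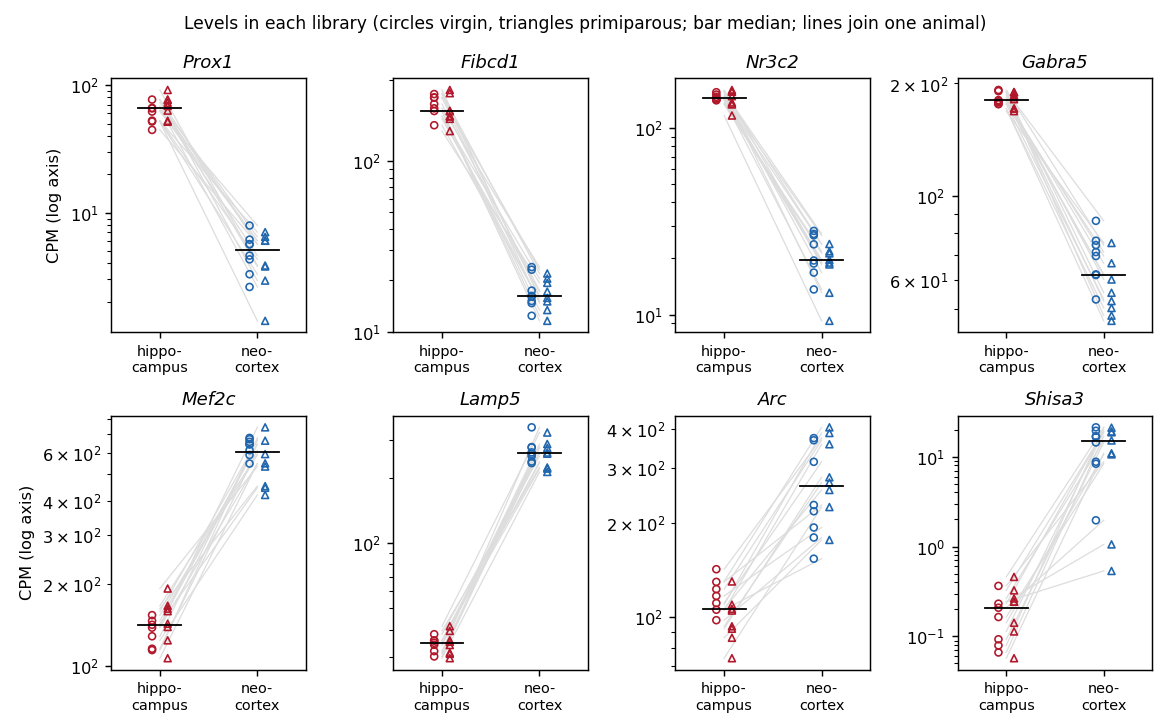
CPM (log axis) of 8 genes in each hippocampal and cortical library, with lines joining the libraries of 1 animal, bars at the medians, circles for virgin and triangles for primiparous females. Prox1, Fibcd1, Nr3c2 and Gabra5 are higher in every hippocampal library, Mef2c and Lamp5 in every cortical library, and the 3 low cortical values of Shisa3 (0.535 to 1.96 CPM) come from animals 405, 413 and 425.

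Genes outside these marker lists made up much of the rest of the 15 largest hippocampal differences. Npy2r, a receptor for neuropeptide Y that acts largely on presynaptic terminals (chr3:82538383-82548989), stood at 42.4, 60.1 and 70.98 CPM in hippocampus and 1.38, 3.08 and 5.35 CPM in cortex (log2 difference 4.32 ± 0.15, adjusted p = 1.69e-15). Htr4, a serotonin receptor that raises cyclic AMP, reached 11.7, 15.1 and 17.3 CPM in hippocampus and 0.245, 0.737 and 1.34 CPM in cortex (log2 difference 4.28 ± 0.15, adjusted p = 2.38e-15). In both genes every hippocampal library exceeded every cortical library by a wide margin. Lhx9, a LIM-homeodomain factor, had a log2 difference of 4.97 ± 0.20 and hippocampal levels of 8.41 to 18.2 CPM. The cytokine gene Il16 was at 3.87 ± 0.10, Lefty1, a secreted inhibitor of Nodal signalling, at 3.73 ± 0.13, the keratin gene Krt2 at 3.94 ± 0.24 and Vwa3b at 4.15 ± 0.15. Shisa6, an auxiliary subunit of AMPA receptors, stood at 157, 199 and 235 CPM in hippocampus and 8.81, 17.3 and 22.2 CPM in cortex (log2 difference 3.66 ± 0.09, adjusted p = 5.74e-18). Without the 5 animals, the log2 difference of these 8 genes ran from 3.64 to 4.82.

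Genes of upper cortical layers were higher in cortex. Of 13 members, 11 were called in that direction, 9 of them at least 2-fold, and the median log2 difference was -1.24. Lamp5, a lysosome-associated membrane protein of layer cells and of a class of interneurons (chr2:136052025-136069917), stood at 29.5, 34.7 and 41.4 CPM in hippocampus and 213, 259.7 and 341 CPM in cortex (log2 difference -2.89 ± 0.06, adjusted p = 7.52e-19). Rspo1, a secreted enhancer of Wnt signalling (chr4:124986401-125009102), stood at 0.567, 0.885 and 1.96 CPM in hippocampus and 11.3, 15.4 and 20.8 CPM in cortex (log2 difference -3.89 ± 0.13, adjusted p = 1.37e-15). Neither gene overlapped between the regions. Stard8, a GTPase-activating protein, was at -2.04 ± 0.06, the homeodomain factor gene Cux2 at -1.85 ± 0.11, the calcium sensor gene Otof at -1.76 ± 0.14 and the orphan nuclear receptor gene Rorb at -1.47 ± 0.08. Cux1 (-1.14) and Rasgrf2 (-0.57) had smaller differences in the same direction. The members called higher in hippocampus were Mdga1, a neuroligin-binding adhesion protein (1.26 ± 0.09, adjusted p = 2.92e-10), and the sodium channel gene Scnn1a (0.60 ± 0.09, adjusted p = 1.36e-05), which was at 0.30 and not called in the 3 low-bulb pairs (adjusted p = 0.262). Over the 3 low-bulb pairs the median of the list was -1.38.

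Genes of deep cortical layers were divided between the regions. Of 20 members tested, 11 were called higher in cortex and 9 higher in hippocampus, with 8 and 3 at least 2-fold and a median log2 difference of -0.67. That median was -0.32 over the 3 low-bulb pairs. Foxp2, a forkhead factor of corticothalamic cells, stood at 1.48, 2.25 and 4.37 CPM in hippocampus and 12.6, 15.8 and 21.6 CPM in cortex (log2 difference -2.75 ± 0.09, adjusted p = 1.17e-15). Syt6, a synaptotagmin, stood at 4.46, 5.34 and 8.34 CPM in hippocampus and 20.4, 50.8 and 75.4 CPM in cortex (log2 difference -2.95 ± 0.15, adjusted p = 2.26e-12), and at -1.84 in the 3 low-bulb pairs. Tbr1, a T-box factor of layer 6 cells, was at -1.19 ± 0.08, and Cplx3, a complexin of subplate cells, was at -1.84 ± 0.08. Nxph4, a secreted neurexin ligand, was at -1.99 ± 0.20 over the 15 animals and at -0.63 in the 3 low-bulb pairs. On the hippocampal side, Crym, which encodes the thyroid hormone-binding protein mu-crystallin, stood at 132, 188 and 227 CPM in hippocampus and 33.7, 47.6 and 70.1 CPM in cortex (log2 difference 1.98 ± 0.08, adjusted p = 8.32e-15). Bcl11b, the zinc finger factor Ctip2 of subcortically projecting neurons, stood at 168, 197 and 214 CPM in hippocampus and 64.1, 75.1 and 85.6 CPM in cortex (log2 difference 1.43 ± 0.04, adjusted p = 1.22e-16). The repressor gene Bcl6 (1.12), Etv1 (0.63) and Fezf2 (0.49), factors of layer 5 cells, were also called higher in hippocampus.

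The 15 largest cortical differences differed in how they stood in the 3 low-bulb pairs. For Rspo1 above and for 9 other genes the difference remained over 8-fold in those pairs. Dkkl1, a secreted dickkopf-like protein (chr7:45207525-45212165), stood at 0.104, 0.567 and 1.48 CPM in hippocampus and 16.6, 21.2 and 30.4 CPM in cortex (log2 difference -4.97 ± 0.16, adjusted p = 6.88e-16) and was at -4.95 in the 3 low-bulb pairs. Igfn1, an immunoglobulin and fibronectin domain protein first described in muscle, was at -4.46 ± 0.32 and -4.36, in that order. Rasgef1c, a Ras exchange factor, was at -3.94 ± 0.08 and -3.86, and the gene A830009L08Rik at -4.78 ± 0.21 and -4.87. Col24a1, a fibrillar collagen, was at -4.12 ± 0.20 and -3.46, Myl4, a myosin light chain, at -4.08 ± 0.15 and -4.11, the metalloprotease gene Adam33 at -3.63 ± 0.20 and -3.07, and the sialidase gene Neu2 at -3.58 ± 0.18 and -3.12. Trbc2, a constant segment of the T cell receptor beta chain, was at -5.55 ± 0.27 and -4.28.

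The other 5 of these 15 genes were below 8-fold in the 3 low-bulb pairs, and 3 of them (Shisa3, Th and Tbx21) belong to the list that picked those pairs. Shisa3, a modulator of Wnt and fibroblast growth factor signalling, was at 0.535 to 21.2 CPM in cortex and 0.0572 to 0.459 CPM in hippocampus, with a log2 difference of -5.81 ± 0.31 (adjusted p = 1.57e-12). Its cortical level was 0.535 to 1.96 CPM in the 3 low-bulb libraries and 8.35 to 21.2 CPM in the other 13, and the log2 difference of those 3 pairs was -2.13. Omp, the olfactory marker protein of olfactory sensory neurons, went from -5.76 ± 0.38 to -0.99 in the 3 low-bulb pairs. Th, tyrosine hydroxylase, the rate-limiting enzyme of catecholamine synthesis, went from -4.92 ± 0.45 to -1.25. Trh, thyrotropin-releasing hormone, went from -5.30 ± 0.43 to -2.34, and the T-box factor gene Tbx21, a marker of mitral and tufted cells, from -4.40 ± 0.29 to -1.72. Ms4a15 (-8.10) and S100a5 (-7.21) had larger fitted differences but the same sign in only 14 of 15 pairs. They were named after their values were seen, and stood at -2.48 and -1.11 in the 3 low-bulb pairs.

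**Figure D4:**
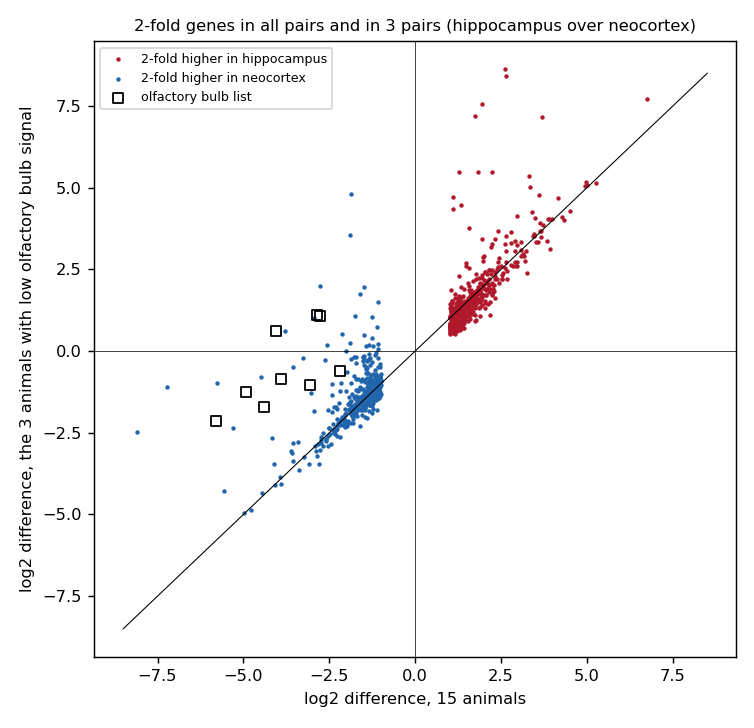
Log2 difference over the 3 pairs with low olfactory bulb signal against the log2 difference over 15 animals, for the 966 genes called at 2-fold, with the diagonal and with squares for the olfactory bulb list. The 9 squares lie above the diagonal on the cortical side, as the choice of the pairs by these genes fixes, and most other genes lie close to it. Some hippocampal genes lie far above the diagonal, and the cause was not tested.

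Transcription factors of the forebrain differed widely in both directions. Of 59 tested, 33 were called higher in hippocampus and 24 higher in cortex, with 14 and 12 at least 2-fold and a median log2 difference of 0.21. Besides Lhx9, Prox1 and Bcl11b, the LIM-only factor gene Lmo1 (1.84 ± 0.10), the bHLH genes Bhlhe22 (1.54 ± 0.06) and Neurod6 (1.41 ± 0.06), and Mef2a (1.38 ± 0.20), a MADS-box factor, were among the hippocampal ones. Zbtb20, a zinc finger factor of hippocampal development, was at 1.24 ± 0.13. On the cortical side, Mef2c, the paralogue of Mef2a, stood at 107, 141 and 192 CPM in hippocampus and 421, 603 and 743 CPM in cortex (log2 difference -2.01 ± 0.09, adjusted p = 4.27e-14). The libraries of the regions were fully apart for Mef2c. Pbx3, a TALE homeodomain factor, was at -1.87 ± 0.20 over the 15 animals and -0.26 in the 3 low-bulb pairs, and Meis2 at -1.54 ± 0.10 and -0.86. Related factors took opposite sides: Emx2 (0.73) against Emx1 (-0.90), Lmo3 (1.30) against Lmo4 (-0.81) and Nr2f2 (0.99) against Nr2f1 (-0.37), with all 6 called.

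**Figure D5:**
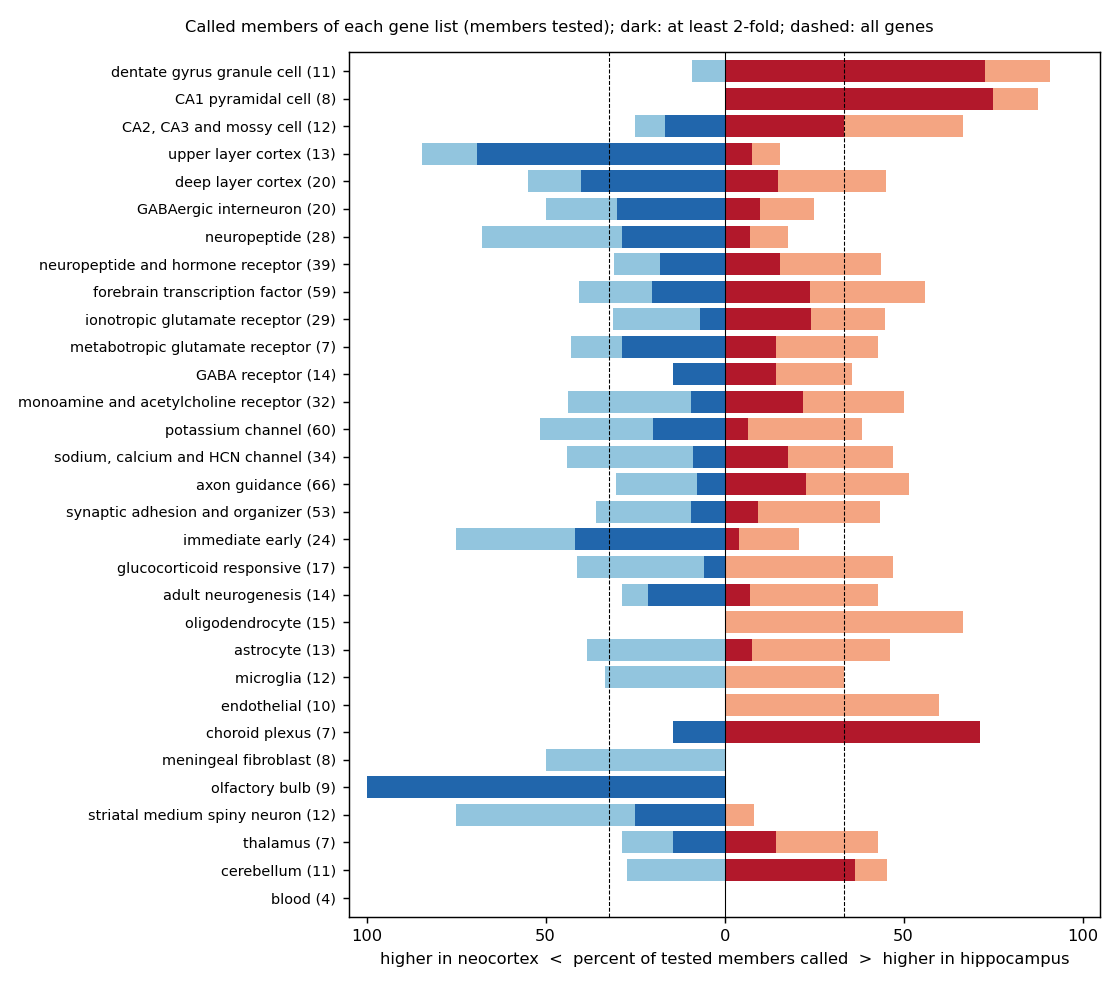
Percent of the tested members of each gene list called higher in hippocampus (right) or in cortex (left), dark where at least 2-fold, with dashed lines at the 33.5% and 32.4% of all genes. Granule cell (10 of 11) and CA1 (7 of 8) lists lean to hippocampus, upper layer (11 of 13), neuropeptide (19 of 28), immediate early (18 of 24) and olfactory bulb (9 of 9) lists to cortex.

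Among ionotropic glutamate receptors and their auxiliary subunits, 13 of 29 were called higher in hippocampus and 9 higher in cortex, with 7 and 2 at least 2-fold and a median log2 difference of -0.05. This median turned to 0.24 in the 3 low-bulb pairs. Gria1, the GluA1 subunit of AMPA receptors, stood at 1085, 1213 and 1334 CPM in hippocampus and 338, 404 and 441 CPM in cortex (log2 difference 1.66 ± 0.03, adjusted p = 5.70e-19). Every hippocampal library had more than 2 times the highest cortical level of Gria1. Grin2a, a subunit of NMDA receptors, stood at 35.5, 53.7 and 70.6 CPM in hippocampus and 2.59, 12.7 and 26.5 CPM in cortex (log2 difference 2.18 ± 0.19, adjusted p = 8.33e-09), also without overlap. Gria2 was higher in hippocampus by a smaller margin (0.46 ± 0.06), Gria4 was higher in cortex (-0.74 ± 0.08), and the obligatory NMDA subunit gene Grin1 did not pass the test (-0.07 ± 0.04, adjusted p = 0.131). Gria2 was not called after length and GC correction (0.13, adjusted p = 0.0835) or with the olfactory bulb covariate (0.22, adjusted p = 0.220). Among auxiliary subunits, Shisa6 above was at 3.66, Cnih2 at 1.23 ± 0.06, and Cacng8 at 1.13 ± 0.06 against Cacng3 at -1.22 ± 0.04. Of the 7 metabotropic receptors, 3 were called in each direction, with a median log2 difference of 0.18. Grm5, a receptor coupled to phospholipase C, was at 1.16 ± 0.09, and Grm8, a presynaptic receptor, at -1.50 ± 0.10.

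GABA receptor subunits mostly differed little, with 5 of 14 called higher in hippocampus, 2 higher in cortex and 7 in neither, and a median log2 difference of 0.15. Gabra5, the subunit of extrasynaptic receptors for which the hippocampus is known (chr7:57407669-57591016), stood at 169, 181 and 192 CPM in hippocampus and 46.6, 61.8 and 86.1 CPM in cortex (log2 difference 1.60 ± 0.06, adjusted p = 4.30e-15). Its levels were separate in every library. Gabra2 was at 1.01 ± 0.07, and Gabrb1 (0.87) was also called higher in hippocampus. Gabra3 was higher in cortex, at 52.9, 73.2 and 90.6 CPM in hippocampus and 119.8, 156 and 181 CPM in cortex (log2 difference -1.04 ± 0.08, adjusted p = 2.04e-10). Gabrd, the delta subunit of tonic receptors, stood at 18.8, 25.1 and 43.1 CPM in hippocampus and 60.4, 75.8 and 106 CPM in cortex (log2 difference -1.58 ± 0.09, adjusted p = 3.09e-12).

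Interneuron genes were called higher in cortex for 10 of 20 members and higher in hippocampus for 5, with a median log2 difference of -0.18 over the 15 animals and 0.19 over the 3 low-bulb pairs. Vip, the peptide of disinhibitory interneurons, stood at 14.6, 17.4 and 22.1 CPM in hippocampus and 40.2, 55.9 and 73.7 CPM in cortex (log2 difference -1.60 ± 0.06, adjusted p = 1.86e-14) and at -1.58 in the 3 low-bulb pairs. Pvalb, the calcium buffer of fast-spiking basket cells, was at -1.11 ± 0.10, but it was not called in the 3 low-bulb pairs (-0.75, adjusted p = 0.316). Sst, the peptide of dendrite-targeting cells, did not pass the test (0.08 ± 0.07, adjusted p = 0.315). Nos1, neuronal nitric oxide synthase, was the largest on the hippocampal side apart from Prox1, at 44.4, 54.97 and 74.5 CPM in hippocampus and 2.30, 19.5 and 24.6 CPM in cortex (log2 difference 1.73 ± 0.17, adjusted p = 7.08e-08). The biosynthetic enzyme gene Gad1 (-0.62, and -0.14 in the 3 low-bulb pairs), Dlx1 (-1.41 and -0.31) and Sp9 (-1.09 and 0.23) were closer to 0 or of the opposite sign in those pairs. Calb2, calretinin, was called higher in cortex at -1.25 ± 0.30 over the 15 animals, but higher in hippocampus in those 3 pairs at 1.03 (adjusted p = 0.0299) and with the covariate at 1.14 (adjusted p = 0.00088). In primiparous pairs alone it was not called (-1.12, adjusted p = 0.0753).

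Receptors for monoamines, acetylcholine and related transmitters were called higher in hippocampus for 16 of 32 members and higher in cortex for 14, with 7 and 3 at least 2-fold and a median log2 difference of 0.04. After Htr4, the largest hippocampal value was that of Drd5, a dopamine receptor that raises cyclic AMP, at 17.7, 21.5 and 25.3 CPM in hippocampus and 1.14, 1.79 and 2.18 CPM in cortex (log2 difference 3.64 ± 0.07, adjusted p = 5.70e-19). Chrna7, a nicotinic acetylcholine receptor subunit with high calcium permeability, was at 2.13 ± 0.17, and Chrna5 at 1.72 ± 0.10. Htr1a, an inhibitory serotonin receptor, was at 1.47 ± 0.09, Htr5b at 1.76 ± 0.12 and Htr2c at 1.31 ± 0.13. The cannabinoid receptor gene Cnr1 was higher in hippocampus by just under 2-fold (0.96 ± 0.09). On the cortical side, Adra1b, an adrenergic receptor, stood at 3.41, 4.27 and 5.96 CPM in hippocampus and 25.4, 30.2 and 36.7 CPM in cortex (log2 difference -2.74 ± 0.08, adjusted p = 1.38e-16). The histamine receptor gene Hrh1 was at -1.52 ± 0.07, and Adora2a, an adenosine receptor of striatal neurons, was at -1.65 ± 0.18 with overlapping groups. Drd1 (-0.91 ± 0.09) was called higher in cortex, and Htr7 (-0.07 ± 0.08, adjusted p = 0.438) was not called.

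Neuropeptides were mostly higher in cortex. Of 28 tested, 19 were called in that direction and 5 higher in hippocampus, with a median log2 difference of -0.49, and of -0.48 in the 3 low-bulb pairs. Crh, corticotropin-releasing hormone, stood at 1.91, 2.76 and 4.65 CPM in hippocampus and 9.56, 13.4 and 21.8 CPM in cortex (log2 difference -2.20 ± 0.13, adjusted p = 4.48e-12). Adcyap1, which encodes the peptide PACAP, stood at 3.69, 4.90 and 6.70 CPM in hippocampus and 16.96, 23.2 and 30.7 CPM in cortex (log2 difference -2.14 ± 0.08, adjusted p = 2.91e-15). Npy, made by interneurons, was at -0.89 ± 0.06, Tac2 at -1.52 ± 0.11, and Cck, made by interneurons and by pyramidal cells, at -0.46 ± 0.07. The cortical excess of Nmb was -2.20 over the 15 animals and -0.62 in the 3 low-bulb pairs, which Nmb helped to pick, and that of Penk -1.71 and -0.86. Nts, neurotensin, was the largest on the hippocampal side, at 2.81, 5.39 and 8.21 CPM in hippocampus and 0.233, 1.13 and 1.53 CPM in cortex (log2 difference 2.42 ± 0.17, adjusted p = 1.00e-10). Grp, gastrin-releasing peptide, was at 1.48 ± 0.11, and the neurotrophin gene Bdnf was called higher in hippocampus at 0.32 ± 0.06 with overlapping groups.

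Receptors for peptides and hormones were called higher in hippocampus for 17 of 39 members and higher in cortex for 12, with a median log2 difference of 0.03. Cckbr, the main brain receptor for cholecystokinin, stood at 7.13, 9.16 and 12.99 CPM in hippocampus and 58.1, 67.8 and 79.95 CPM in cortex (log2 difference -2.84 ± 0.08, adjusted p = 2.89e-17). Oprk1, the kappa opioid receptor, was at -2.20 ± 0.15, Crhr1, a receptor for corticotropin-releasing hormone, at -1.74 ± 0.09, and Sstr2, a somatostatin receptor, at -1.11 ± 0.11. Sstr4 took the other side at 1.62 ± 0.13. Vipr2 was called higher in cortex at -3.78 ± 0.53, with the value 0.60 in the 3 low-bulb pairs. Prlr, the prolactin receptor, which choroid plexus also expresses, was at 3.66 to 74.3 CPM in hippocampus and 0.783 to 2.38 CPM in cortex (log2 difference 2.79 ± 0.38, adjusted p = 5.13e-06), and at 1.99 without the 5 animals. Oxtr, the oxytocin receptor, differed less (0.50 ± 0.10, adjusted p = 1.15e-04), as did the estrogen receptor gene Esr1 (0.89 ± 0.23), both with overlapping groups. Oxtr was not called in the 3 low-bulb pairs (0.30, adjusted p = 0.215) or with the olfactory bulb covariate (0.14, adjusted p = 0.690). Esr1 was not called in those pairs (0.51, adjusted p = 0.323), with the covariate (0.19, adjusted p = 0.833) or in virgin pairs alone (0.65, adjusted p = 0.0685).

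The 2 receptors for corticosteroids differed in their distribution. Nr3c2, the mineralocorticoid receptor, which binds corticosterone with high affinity (chr8:76898083-77245012), stood at 117, 145 and 160.1 CPM in hippocampus and 9.25, 19.6 and 28.1 CPM in cortex (log2 difference 2.96 ± 0.09, adjusted p = 3.51e-16). All 15 pairs were higher in hippocampus, and the groups were far apart. Nr3c1, the glucocorticoid receptor, stood at 89.02, 111 and 122 CPM in hippocampus and 78.9, 114 and 149.9 CPM in cortex (log2 difference 0.01 ± 0.07, adjusted p = 0.903), with overlapping groups, and at -0.30 (adjusted p = 0.0251) in the 3 low-bulb pairs. Of 17 genes known to respond to glucocorticoids, 8 were called higher in hippocampus and 7 higher in cortex, with a median log2 difference of 0.12. Fkbp5, a chaperone that lowers receptor affinity, was at 0.79 ± 0.06, and Zbtb16 at 0.77 ± 0.08. Cdkn1a, the cell cycle inhibitor p21, was the single member over 2-fold, at 7.71, 12.1 and 22.8 CPM in hippocampus and 24.5, 42.2 and 64.5 CPM in cortex (log2 difference -1.76 ± 0.09, adjusted p = 1.18e-12). Sgk1 (0.29 ± 0.04) and Per1 (-0.50 ± 0.07) were called in opposite directions. Sgk1 was not called in the 3 low-bulb pairs (0.13, adjusted p = 0.328) or with the olfactory bulb covariate (0.15, adjusted p = 0.295).

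Potassium channel genes were called higher in cortex more often than higher in hippocampus, 31 and 23 of 60, with 12 and 4 at least 2-fold and a median log2 difference of -0.17. Kcnh4, a channel of the ether-a-go-go family, stood at 1.05, 2.38 and 3.62 CPM in hippocampus and 12.9, 18.9 and 27.6 CPM in cortex (log2 difference -3.09 ± 0.14, adjusted p = 8.11e-14). Kcng2, a silent subunit that modifies other channels, stood at 31.3, 38.5 and 45.8 CPM in hippocampus and 5.06, 6.88 and 10.3 CPM in cortex (log2 difference 2.49 ± 0.07, adjusted p = 1.26e-16). Neither gene had overlapping groups. The auxiliary subunit genes Kcnab3 (-1.87 ± 0.06) and Dpp10 (-1.65 ± 0.09) and the sodium-activated channel gene Kcnt1 (-1.58 ± 0.10) were higher in cortex. Kcnq3, a subunit of the M-current (1.37 ± 0.15, and 0.80 in the 3 low-bulb pairs), Kcnj6, a G-protein-gated channel (1.20 ± 0.12), and Kcnab1 (1.15 ± 0.06) were higher in hippocampus. The Kv1 pore subunit gene Kcna1 (0.12 ± 0.07, adjusted p = 0.138) did not pass the test.

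Sodium, calcium, HCN and TRP channel genes were called higher in hippocampus for 16 of 34 and higher in cortex for 15, with a median log2 difference of 0.13. The median was -0.07 in the 3 low-bulb pairs. Trpc5, a receptor-operated cation channel, stood at 14.1, 21.7 and 28.1 CPM in hippocampus and 0.783, 4.52 and 7.40 CPM in cortex (log2 difference 2.30 ± 0.17, adjusted p = 2.35e-10), and Trpc4, its close relative, was at 1.75 ± 0.06. Scn3b (1.65 ± 0.05) and Scn4b (-1.85 ± 0.07), both beta subunits of sodium channels, took opposite sides without overlap. Cacna1h, a low-threshold calcium channel, was at 1.57 ± 0.09, and Cacna1e, the R-type channel, at 1.51 ± 0.16. Hcn4, a pacemaker channel, was called higher in cortex at -1.66 ± 0.20, with -0.87 in the 3 low-bulb pairs.

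Axon guidance genes, whose products steer growing axons and remain in adult synapses, were called higher in hippocampus for 34 of 66 members and higher in cortex for 20, with 15 and 5 at least 2-fold and a median log2 difference of 0.15. Among Eph receptors, Epha6 stood at 47.5, 66.9 and 78.7 CPM in hippocampus and 5.58, 9.23 and 14.4 CPM in cortex (log2 difference 2.90 ± 0.10, adjusted p = 1.54e-15), Epha7 was at 1.91 ± 0.08 and Epha4 at 1.43 ± 0.09. Efna5, an ephrin ligand of these receptors, stood at 5.66, 8.12 and 11.8 CPM in hippocampus and 36.2, 43.9 and 55.7 CPM in cortex (log2 difference -2.41 ± 0.08, adjusted p = 1.37e-15). The receptors Epha6, Epha7 and Epha4 and the ligand Efna5 thus lay on opposite sides, none with overlapping groups. Slit1, a repellent ligand, was at 2.24 ± 0.06, with Slit3 at 1.34 ± 0.10 and the receptor gene Robo1 at 1.27 ± 0.09. The class 3 semaphorins were divided, with Sema3a at -2.60 ± 0.10, Sema3f at -1.69 ± 0.14 and Sema3e at 1.40 ± 0.07, while their receptor genes Nrp1 (1.80 ± 0.06) and Nrp2 (1.91 ± 0.09) were both higher in hippocampus. Plxnd1 was higher in cortex (-1.73 ± 0.10), and Plxna4 (1.41 ± 0.07) and the netrin receptor genes Dcc (1.23 ± 0.11) and Unc5c (1.21 ± 0.10) were higher in hippocampus.

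Synaptic adhesion and organizer genes showed 23 of 53 called higher in hippocampus and 19 higher in cortex, with 5 in each direction at least 2-fold and a median log2 difference of 0.03. Cbln2, a secreted organizer that joins presynaptic neurexins to postsynaptic receptors, stood at 6.94, 7.68 and 11.9 CPM in hippocampus and 40.3, 48.6 and 59.98 CPM in cortex (log2 difference -2.58 ± 0.07, adjusted p = 3.83e-17), and Cbln4 was at -1.45 ± 0.14. The C1q-like gene C1ql2 above had the largest hippocampal value, whereas its relative C1ql3 was at 0.74 ± 0.08. Tenm1 was at 1.39 ± 0.18 and Slitrk3 at 1.01 ± 0.07, on the hippocampal side, and the leucine-rich repeat genes Lrrtm3 (-1.30 ± 0.06) and Flrt1 (-1.19 ± 0.05) on the cortical side. Cbln1 and Cbln3, which are also cerebellar granule cell genes, were at -0.92 ± 0.26 and 1.32 ± 0.45 over the 15 animals and at -1.14 and 1.16 without the 5 animals. In the 3 low-bulb pairs Cbln1 turned to 0.72 (adjusted p = 0.733) and Cbln3 was at 4.45 (adjusted p = 0.308), neither called by edgeR, and without the pairing Cbln1 was at -0.55 (adjusted p = 0.121).

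Some closely related genes took opposite sides. The 29 pairs of paralogues examined were picked with earlier results of these data known, so their count is a description. In 15 of them both members were called in opposite directions, where 33.5% of all genes tested were called higher in hippocampus and 32.4% higher in cortex, and in 5 of these both were over 2-fold. The latter were the neuronal pentraxins Nptx1 (1.04) and Nptx2 (-1.13), the AMPA receptor auxiliary subunits Cacng8 (1.13) and Cacng3 (-1.22), the GABA receptor subunits Gabra5 (1.60) and Gabra3 (-1.04), the somatostatin receptors Sstr4 (1.62) and Sstr2 (-1.11), and the semaphorins Sema3e (1.40) and Sema3f (-1.69). Nptx1 stood at 643, 868 and 1039 CPM in hippocampus and 311, 432 and 548 CPM in cortex, and Nptx2 at 33.6, 42.1 and 50.4 CPM in hippocampus and 68.4, 94.1 and 117 CPM in cortex. The groups of neither pentraxin overlapped. The kainate receptor subunits Grik4 (1.29) and Grik3 (-0.80), the serotonin receptors Htr2c (1.31) and Htr2a (-0.47) and the potassium channels Kcnj3 (0.90) and Kcnj9 (-0.90) were also called in opposite directions. Htr2a was not called without the 5 animals (-0.32, adjusted p = 0.253) or in primiparous pairs alone (-0.42, adjusted p = 0.194).

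Immediate early genes, which neurons transcribe within minutes of activity, were largely higher in cortex. Of 24 members, 18 were called in that direction, 10 of them at least 2-fold, and 5 were called higher in hippocampus, with a median log2 difference of -0.68 over the 15 animals and -0.84 in the 3 low-bulb pairs. The cyclic AMP response element, which the factor CREB binds, is a known control element of Fos and several other members. The sequence before the start of 3 members higher in cortex and of Nr4a3, which went the other way, picked because it holds part of that element, is shown 5′ to 3′ from RefSeq (GRCm38.p6), as the 250 bases before the transcription start. Capitals mark the half-site TGACG, or CGTCA on the other strand, and the TATA box letters TATAAA.
Fos, chr12:85473640-85473889, plus strand: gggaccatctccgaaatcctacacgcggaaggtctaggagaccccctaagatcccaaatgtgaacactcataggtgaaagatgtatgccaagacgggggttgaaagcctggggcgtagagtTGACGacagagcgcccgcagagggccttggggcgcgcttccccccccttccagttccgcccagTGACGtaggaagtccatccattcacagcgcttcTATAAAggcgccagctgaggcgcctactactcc
Npas4, chr19:4989972-4990221, minus strand: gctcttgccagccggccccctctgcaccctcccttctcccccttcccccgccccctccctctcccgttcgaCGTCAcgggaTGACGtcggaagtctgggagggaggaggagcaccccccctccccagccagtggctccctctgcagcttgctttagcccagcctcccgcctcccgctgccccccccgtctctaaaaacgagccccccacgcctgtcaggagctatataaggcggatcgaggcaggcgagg
Nr4a1, chr15:101266596-101266845, plus strand: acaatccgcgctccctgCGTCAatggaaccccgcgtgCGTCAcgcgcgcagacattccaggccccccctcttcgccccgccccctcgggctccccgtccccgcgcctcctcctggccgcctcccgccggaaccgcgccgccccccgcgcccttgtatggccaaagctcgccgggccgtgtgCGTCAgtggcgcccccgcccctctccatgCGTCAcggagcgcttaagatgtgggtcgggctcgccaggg
Nr4a3, chr4:48045055-48045304, plus strand: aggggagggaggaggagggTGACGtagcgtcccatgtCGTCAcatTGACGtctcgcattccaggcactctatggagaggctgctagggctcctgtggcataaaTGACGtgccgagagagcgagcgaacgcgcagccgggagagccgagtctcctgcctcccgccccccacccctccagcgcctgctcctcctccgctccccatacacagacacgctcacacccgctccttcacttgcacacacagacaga
The windows of Fos and Npas4 hold 2 half-sites each, and those of Nr4a1 and Nr4a3 hold 4 each. The first of 5 windows listed for Egr2 holds 0, and its other windows were not searched. In the shares below each gene also entered with its first listed window only. The whole element TGACGTCA occurs in 1 of 13 windows of immediate early genes called higher in cortex, in 1 of 6 windows of the others and in 2.75% of all windows. Searched on both strands in the windows of 10260 genes tested, the half-site TGACG occurs in 27.3%. It occurs in 8 of the same 13 windows and in 4 of the other 6. Among the 2-fold genes it occurs in 19.3% of 389 windows for hippocampus and 20.4% of 314 windows for cortex. Letters of TGACG and CGTCA overlap where both form TGACGTCA. The TATA box letters TATAAA, searched separately, occur in 6.01% of all windows, 8.48% of the hippocampal and 7.32% of the cortical ones. Such matches are letters in a window, not binding sites.

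Fos, a subunit of the AP-1 factor, stood at 4.63, 8.67 and 11.4 CPM in hippocampus and 18.2, 28.01 and 43.5 CPM in cortex (log2 difference -1.78 ± 0.08, adjusted p = 2.39e-13). Npas4, a bHLH-PAS factor induced by calcium entry, stood at 3.03, 6.36 and 9.64 CPM in hippocampus and 9.98, 19.3 and 36.2 CPM in cortex (log2 difference -1.61 ± 0.13, adjusted p = 6.48e-10). Egr2, a zinc finger factor, had the largest cortical value of the list, at 0.244, 1.14 and 2.67 CPM in hippocampus and 3.20, 5.32 and 11.4 CPM in cortex (log2 difference -2.47 ± 0.20, adjusted p = 1.04e-09). Levels of these 3 genes were separate between the regions although they varied several-fold within each. Arc, which acts at synapses in the removal of AMPA receptors, stood at 73.98, 106 and 142 CPM in hippocampus and 154, 263 and 405 CPM in cortex (log2 difference -1.28 ± 0.10, adjusted p = 4.60e-10), with the highest hippocampal library just under the lowest cortical one. Egr1 was at -1.71 ± 0.08, Ier2 at -1.24 ± 0.11, Ier5 at -1.21 ± 0.07 and the orphan nuclear receptor gene Nr4a1 at -1.01 ± 0.08. Nr4a3, a close relative of Nr4a1, stood at 21.1, 28.99 and 38.5 CPM in hippocampus and 1.81, 6.56 and 11.8 CPM in cortex (log2 difference 2.15 ± 0.15, adjusted p = 9.05e-11), and no cortical library reached the hippocampal range. Nr4a2 (0.69 ± 0.10), Dusp5 (0.29 ± 0.10), Fosl2 (0.37 ± 0.07) and Bdnf were the other members called higher in hippocampus. With the summed olfactory bulb genes as a covariate, Nr4a2 (0.32, adjusted p = 0.310), Fosl2 (0.28, adjusted p = 0.220) and Bdnf (-0.01, adjusted p = 0.964) were not called. Dusp5 was not called without the 5 animals (0.20, adjusted p = 0.108) or in primiparous pairs alone (0.25, adjusted p = 0.188).

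Among the lists for glia and vessels, 1 gene exceeded 2-fold. Of 15 oligodendrocyte genes 10 were called higher in hippocampus and none higher in cortex, with a median log2 difference of 0.23 over the 15 animals and -0.02 in the 3 low-bulb pairs. The myelin gene Mbp (0.17 ± 0.05) was called, but not in the 3 low-bulb pairs (0.02), after length and GC correction (0.09, adjusted p = 0.0823) or in primiparous pairs alone (0.11, adjusted p = 0.164), and Mog (-0.06 ± 0.05, adjusted p = 0.278) was not. Of 13 astrocyte genes, 6 were called higher in hippocampus and 5 higher in cortex, with a median of 0.05. Gfap, the intermediate filament of astrocytes, was that gene, at 452, 512 and 620.4 CPM in hippocampus and 160.1, 221 and 308 CPM in cortex (log2 difference 1.24 ± 0.07, adjusted p = 1.47e-12), without overlap. Aqp4, the water channel of astrocyte endfeet, was at 0.66 ± 0.09, and Aldh1l1, a folate enzyme, at -0.69 ± 0.06. Of 12 microglial genes, 4 were called in each direction, with a median of -0.11, the largest being P2ry12 (0.36 ± 0.08) and Aif1 (-0.31 ± 0.11). In the 3 low-bulb pairs the median was -0.08 and these genes were at 0.03 and -0.06, neither called, and Aif1 was also not called in either state alone. Endothelial genes were called higher in hippocampus for 6 of 10 and higher in cortex for none, with a median of 0.40 over the 15 animals and 0.22 in the 3 low-bulb pairs. Kdr, a receptor for vascular endothelial growth factor, was at 0.82 ± 0.13.

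Genes linked to adult neurogenesis, which in the hippocampus takes place in the dentate gyrus and which also supplies cells to the olfactory bulb, were called higher in hippocampus for 6 of 14 members and higher in cortex for 4, with a median log2 difference of 0.10. The list median was 0.35 in the 3 low-bulb pairs. Neurod1, a bHLH factor of young granule cells, stood at 22.2, 25.5 and 48.7 CPM in hippocampus and 8.63, 12.03 and 13.5 CPM in cortex (log2 difference 1.30 ± 0.08, adjusted p = 3.45e-11). Hopx, a factor of adult neural stem cells, was at 0.81 ± 0.06. Dcx, the microtubule protein of migrating neuroblasts, was higher in cortex at -1.58 ± 0.13 and at -0.93 in the 3 low-bulb pairs, and Eomes, which marks intermediate progenitors and also bulb mitral cells, went from -4.05 ± 0.53 to 0.62. Stmn1, a tubulin-binding protein, was at -1.43 ± 0.05 and -1.39. The stem cell genes Sox2 (0.07 ± 0.04, adjusted p = 0.171) and Nes (0.13 ± 0.10, adjusted p = 0.262) did not pass the test.

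Of the lists for neighbouring tissues, the choroid plexus one was called higher in hippocampus for 5 of 7 members, with a median log2 difference of 2.24. Ttr, which encodes transthyretin, ranged from 24.1 to 3598 CPM in hippocampus and 5.17 to 78.8 CPM in cortex (log2 difference 2.32 ± 0.73, adjusted p = 0.0119), and was at 1.03 without the 5 animals. Its call was lost in virgin pairs alone (2.01, adjusted p = 0.179) and in primiparous pairs alone (2.61, adjusted p = 0.0564). Aqp1 was called higher in cortex at -1.91 ± 0.77, with -3.49 without the 5 animals and 3.55 in the 3 low-bulb pairs. Its call (adjusted p = 0.0382) was lost without the pairing (-0.68, adjusted p = 0.351), with limma-voom (-1.20, adjusted p = 0.126), in either state alone, and when any 1 of 10 animals was left out. Of 12 genes of striatal medium spiny neurons, 9 were called higher in cortex and 1 higher in hippocampus, with a median of -0.64 and a summed level of 276 to 431 CPM in cortex and 198 to 228 CPM in hippocampus. Of 7 thalamic genes, 3 were called higher in hippocampus and 2 higher in cortex, with a median of 0.21. Prkcd, a protein kinase C isoform, was at 1.42 ± 0.13 and Ramp3, a receptor activity-modifying protein, at -1.42 ± 0.17, and without the 5 animals they were at 1.31 and -1.66. Of 11 cerebellar genes, 5 were called higher in hippocampus and 3 higher in cortex, with a median of 0.08 over the 15 animals and 2.82 in the 3 low-bulb pairs. Gabra6 was at 1.82 ± 0.65 and, without the 5 animals, at 1.60, but it was not called in the 3 low-bulb pairs (5.47, adjusted p = 0.258), in either state alone or with limma-trend (0.37, adjusted p = 0.139). Of 8 meningeal fibroblast genes, 4 were called higher in cortex, and of 4 blood genes none was called.

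Whether the regional difference changed with reproductive state was tested as a region by state term in the same animals. No gene of the 13016 had an adjusted p under 0.05 with edgeR's quasi-likelihood F-test (0%), limma-voom or limma-trend, and 1 gene did with DESeq2. At an unadjusted p under 0.05 edgeR counted 1271 genes (9.76%), and the smallest adjusted p was 0.5002. That count was 636 without virgin 4491, 760 without virgin 4489, 803 without primiparous 421, 2905 without primiparous 413, 476 after length and GC correction, 138 in animals with 3-digit numbers alone and 2790 without the 5 animals. The 3 genes with the smallest p were the following. ND3 (chrMT:9459-9806), a mitochondrially encoded subunit of complex I, had a log2 difference of 0.33 in virgin and 0.83 in primiparous pairs (interaction 0.49 ± 0.10, adjusted p = 0.5002). Fam43b was at 0.13 and -0.27, and Cntn6, a neural contactin, at -1.59 and -0.85, with the same adjusted p. For genes described above, Prox1 was at 3.70 in virgin and 3.94 in primiparous pairs, Fibcd1 at 3.67 and 3.60, Nr3c2 at 2.88 and 3.02, and Lamp5 at -2.91 and -2.87. The interaction of Nr3c2 was 0.12 ± 0.18 and that of Prox1 0.21 ± 0.32, neither called.

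Set against the mean levels of the amygdala, hypothalamus and cerebellum, a 2-fold difference did not always mean that the higher region was the highest of the 5, as a description without a test. Of the 510 genes higher in hippocampus, 254 (49.8%) had their highest mean in hippocampus, 123 in hypothalamus, 109 in cerebellum and 24 in amygdala, and 228 (44.7%) had their lowest in cortex. Of the 456 genes higher in cortex, 231 (50.7%) had their highest mean in cortex, 100 in cerebellum, 78 in hypothalamus and 47 in amygdala, and 192 (42.1%) had their lowest in hippocampus. Over all genes tested, hippocampus was the highest for 10.2%, cortex for 14.3%, amygdala for 8.17%, hypothalamus for 30.2% and cerebellum for 37.1%, and the lowest was cortex for 19.5% and hippocampus for 20.5%. Prox1 had a mean of 64.9 CPM in hippocampus, 4.86 in cortex, 8.38 in amygdala, 22.2 in hypothalamus and 27.00 in cerebellum. Nr3c2 had 145 CPM in hippocampus, 20.05 in cortex, 32.6 in amygdala, 22.5 in hypothalamus and 28.01 in cerebellum. Lamp5 had 34.5 CPM in hippocampus, 262 in cortex, 64.9 in amygdala, 12.4 in hypothalamus and 1.87 in cerebellum. Prox1, Nr3c2 and Lamp5 were each highest in the region that gave the call. The amygdala mean lay nearer to cortex than to hippocampus for 258 of the 510 (50.6%) and 254 of the 456 genes (55.7%), and for 48.3% of all genes tested.

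The direction of the calls went with gene length and GC content. With genes divided by length into 3 groups of equal size, 18.7% of the shortest were called higher in hippocampus and 43.8% higher in cortex, and 48.9% and 21.4% of the longest. Divided by GC content in the same way, the genes of lowest GC content had shares of 48.3% and 17.7%, and those of highest GC content 17.7% and 48.8%. After a correction for both, 460 and 387 of 12632 genes were over 2-fold in hippocampus and cortex. All 495 hippocampal and all 422 cortical 2-fold genes with a value kept their sign, and 423 and 359 of them stayed over 2-fold.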

How the data were processed

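RNA-seq was made from 1 library per animal and region. The authors aligned single-end reads with HISAT2 to mm10 and counted reads mapping once with featureCounts, and they deposited whole-number counts for 27179 genes in 77 libraries, without normalization. Strand setting and tool versions are not given in the sources used here, so overlapping and antisense genes cannot be told apart. The deposited log2 table, which the authors' header describes as log2(CPM + 4), matches log2 of counts divided by median-of-ratios size factors plus 4 within 5.00e-05 and was used as an alternative only.

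Genes were kept when 8 or more of the 77 libraries reached 5 CPM, which left the 13016 genes of the log2 table. The 30 libraries of 15 animals were fitted with edgeR 4.0.16 in R 4.3.3 (TMM normalization, animal as block, robust quasi-likelihood F-test, Benjamini-Hochberg adjustment over all genes tested). CPM are counts scaled to the total of each library, without TMM factors. The block comes from the animal numbers in the labels. Deviations of libraries from their group means correlated with a median of 0.104 (-0.283 to 0.287) within an animal and -0.0078 between animals. A 2-fold call needs an adjusted p under 0.05 and a log2 difference of at least 1 in size. The region by state term was tested in the same paired fit, with 7 virgin and 8 primiparous animals. In data simulated on these libraries, the fit recovered 99% of 200 genes changed by 1.5-fold among 13016, and 56% for the region by state term. It also called 9 and 8 unchanged genes. The simulation had 1 dispersion for all genes, no animal effect and no signal of other tissue, so these shares are not the sensitivity in the real data.

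Alternatives used limma 3.58.1 and DESeq2 1.42.0, other normalizations and filters, other designs, a length and GC correction, subsets of animals and leaving out each animal. Summaries and figures used Python 3.11.15, pandas 2.3.3, numpy 2.4.6 and matplotlib 3.10.9. Positions and promoter sequences come from RefSeq tables of GRCm38.p6, the assembly of mm10, with 12895 of 13016 genes matched by Entrez identifier. Exon lengths and the GC content of the longest transcript come from GENCODE, joined by Entrez identifier, for 12632 genes (97.0%). The promoter table gave a window for 10260 genes, and the first listed was used where a gene had several. Genes named are the 15 largest differences in each direction among genes called with the same sign in 15 of 15 animals and a mean of at least 5 CPM in the higher region, up to 4 members of each list in its main direction and up to 2 in the other, the 3 smallest p of the region by state test and the paralogue pairs. Other list members are named to complete a group, and some genes that the rule names are not reported here. The members and lists were chosen with earlier results of these data known. Each library held 8678050 counts or more, and p-values of the paired fit measure how the difference within an animal varies between animals.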

Additional observations from a re-analysis of the deposited data

Results flagged for a closer look

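Groups of 7 or 8 libraries of 1 region and state were searched for a library apart from the others by Dixon's test at the 95% level, over the summed marker levels of other tissues and the 30 genes with the largest differences. Of 148 groups, 19 had such a library, and chance alone would give about 1 in 20.

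All 7 of the sums apart were in hippocampal libraries. Choroid plexus genes summed to 3557 CPM in virgin 4487, with 902 CPM in the next library, and to 3960 CPM in primiparous 425, with 1042 CPM in the next. Primiparous 425 also had the highest meningeal sum (216 CPM, next 136 CPM) and the highest blood sum (109.8 CPM, next 54.7 CPM) of its group. Cerebellar genes summed to 704 CPM in primiparous 413 (next 71.5 CPM) and to 98.1 CPM in virgin 4487 (next 57.0 CPM), and thalamic genes to 232 CPM in virgin 4487 (next 94.6 CPM).

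Among single genes with a large regional difference, 12 values stood apart, in 8 libraries. In hippocampus, Lct was low in virgin 4488 at 35.6 CPM, against 59.1 CPM in the next library. Lhx9 was low in virgin 409 at 8.41 CPM (next 14.1 CPM) and in primiparous 413 at 10.05 CPM (next 14.9 CPM). Omp was high in virgin 4491 at 0.549 CPM (next 0.365 CPM), Trbc2 in virgin 405 at 0.903 CPM (next 0.231 CPM), A830009L08Rik in virgin 409 at 0.530 CPM (next 0.208 CPM) and Trh in primiparous 413 at 1.32 CPM (next 0.286 CPM). In cortex, Dsp was high in primiparous 418 at 3.01 CPM (next 0.947 CPM) and Spink8 in virgin 4486 at 2.11 CPM (next 1.15 CPM). The cortex of primiparous 427 was high for Trbc2 at 14.1 CPM (next 9.01 CPM), A830009L08Rik at 7.78 CPM (next 5.46 CPM) and Myl4 at 46.0 CPM (next 30.7 CPM).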

How the results depend on the processing

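The count of 8573 genes stayed within 1.5 times under every setting except the olfactory bulb ones. There, 3803 genes were called over the 3 low-bulb pairs alone, which are fewer animals, and 2905 with the olfactory bulb sum as a covariate. That sum goes largely with region, at 17.0 to 24.0 CPM in hippocampus and a median of 297 CPM in cortex. The covariate and region can thus be separated only in part, and a call lost with the covariate need not mean a smaller difference. With the covariate 838 genes were over 2-fold. Across settings, 45.3% (upper-quartile factors) to 53.9% (length and GC correction) of calls were higher in hippocampus. This share was 53.4% in the low-bulb pairs and 49.2% with the covariate. The 2-fold count of 966 was 615 when tested against 2-fold itself (glmTreat), 523 with limma-trend on log2(CPM + 4), which shrinks low genes, 1591 with edgeR's filterByExpr and 2234 with no filter, which test more genes. Without the pairing (no replicate block) 8726 genes were called and 950 were over 2-fold. Leaving out each animal gave 8185 to 8653 calls, 941 to 1012 genes over 2-fold and 0 genes for the region by state term. That term had 0 calls in the main fit, 1 with DESeq2 and 4 in the animals with 4-digit numbers alone, which are 5 virgin and 1 primiparous, so that the lone primiparous animal is assumed to vary like the virgins. Of 269 genes named in the text or picked by its rule, 75 kept their sign but lost their call in at least 1 setting, 69 of them in the low-bulb pairs or with the olfactory bulb covariate, 24 in other settings and 5 (Aqp1, Htr2a, Csf1r, Col1a1 and Pcp2) when 1 animal was left out. Among genes of the report, Aif1, Dlx1, Esr1, Gad1, Hcn4, Mbp, Ms4a15, Nmb, Npnt, Nxph4, Omp, Oxtr, Pbx3, S100a5, Scnn1a, Sgk1, Tbx21, Th and Ttr lost their call both in the low-bulb pairs and with the covariate. Bdnf, Cbln3, Gabra6, Map3k15, P2ry12, Penk, Prlr, Pvalb and Trh lost it, with the same sign, in the low-bulb pairs alone, and Aqp4, C1ql3, Cacna1e, Cck, Fezf2, Fosl2, Gria2, Htr2a, Kcnj3, Kcnq3, Kdr, Mef2a, Nr4a2, Ramp3, Tenm1 and Zbtb16 with the covariate alone. Calb2, Cbln1, Cbln3, Dusp5, Esr1, Gabra6, Htr2a, Mbp, Pdzd2, Ttr, Aif1 and Aqp1 lost it in at least 1 of the fits by state or by digits of the animal number, and Gria2 after length and GC correction. Changes of sign occurred in 22 genes, of which 12 were called over the 15 animals, and the cause was not tested. Of these 12, Cacng5 and Calb2 were called in the opposite direction both in the low-bulb pairs and with the covariate. Eomes, and among the lost calls Nmb, Tbx21 and Th, belong to the summed olfactory bulb list, so their changes in both settings follow from its choice. C1qb was at 0.0663 after length and GC correction. In the 3 low-bulb pairs Cacng5 was at 0.74, Calb2 at 1.03, Vipr2 at 0.60, Eomes at 0.62, Ugt8a at -0.0019, Cx3cr1 at -0.0404, Aqp1 at 3.55, Cbln1 at 0.72 and Sp9 at 0.23. With the covariate Cacng5 was at 0.84, Calb2 at 1.14, Vipr2 at 0.87, Eomes at 1.02, Ugt8a at -0.0395, P2ry12 at -0.0575, Cx3cr1 at -0.0195, Aqp1 at 4.20, Cbln1 at 0.65, Sp9 at 0.25 and Bdnf at -0.0111. The 10 others were not called over the 15 animals. Nr3c1 was at -0.30 in the low-bulb pairs, -0.41 with the covariate, -0.18 after length and GC correction (called higher in cortex in these 3), -0.0860 in virgin pairs, -0.0511 in animals with 4-digit numbers, -0.0263 with upper-quartile factors, -0.0257 without the pairing, -0.0125 in 1 fit of all 5 regions and -0.0293 to 0.0499 when each animal was left out. Kcna1 was at -0.19 in the low-bulb pairs and -0.25 with the covariate, and Nes at -0.0087 in the low-bulb pairs, -0.0506 in primiparous pairs and -0.11 in animals with 3-digit numbers. Fam43b was at 0.17 after length and GC correction (called), 0.13 in virgin pairs and 0.0167 in animals with 4-digit numbers, where Mog was at 0.0096 and Sox2 at -0.0437. Mpped1 was at 0.0786 after the correction, 0.0392 in virgin pairs, 0.0076 without the 5 animals and -0.0495 to 0.000365 when each animal was left out. Mog was at 0.0615 and Grin1 at 0.0021 after the correction, Grin1 at 0.0018 with the covariate, Sst at -0.0045 in primiparous pairs and Htr7 at 0.0054 without the 5 animals. Some list medians near 0 also changed sign in the low-bulb pairs: glucocorticoid responsive (-0.01), monoamine and acetylcholine receptor (-0.04) and synaptic adhesion (-0.02). The axon guidance median was 0.25 there. The choroid plexus, cerebellar and low-bulb settings and the olfactory bulb covariate were added after seeing the data. Depth limits genes near 0 in 1 region, such as Dsp in cortex and Dkkl1 in hippocampus, whose size of difference rests on few counts there.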

Other observations

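The gene with the smallest p of all genes tested, named after its value was seen, was Cabp7, which encodes a calcium-binding protein (chr11:4736892-4747179). It stood at 82.5, 108 and 118 CPM in hippocampus and 5.87, 9.04 and 11.7 CPM in cortex (log2 difference 3.57 ± 0.06, adjusted p = 2.90e-20), without overlap, and was at 3.62 without the 5 animals and 3.33 in the 3 low-bulb pairs. Its mean was 10.02 CPM in amygdala, 12.8 CPM in hypothalamus and 40.1 CPM in cerebellum. On the cortical side the smallest p was that of Rasgef1c, at 1.57, 2.23 and 4.03 CPM in hippocampus and 29.9, 35.5 and 46.3 CPM in cortex (adjusted p = 5.70e-19), whose mean in amygdala was 47.3 CPM and so above that in cortex (35.8 CPM).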
